A study of Mus musculus with 7 samples.

Results

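Voltage-gated and potassium ion channel genes were taken from a microarray comparison of mouse extensor digitorum longus, which is a hindlimb muscle built mostly of fast fibres. The genes were chosen by name: every gene whose symbol on the array begins with Kcn, Cacn or Clcn, or with Scn and a digit, except Kcnj8. This gave 133 of the 19939 genes on the array with an unambiguous symbol. Of these, 130 code for proteins and 3 are long non-coding RNAs (Kcnd3os, Kcnmb4os1 and Kcnmb4os2). The arrays held total RNA of 3 AMPKα1α2 double knockout mice (KO), which lack both catalytic subunits of AMP-activated protein kinase, and of 4 wild type mice (WT), 1 mouse per array. C57/Bl6 and SV129 strains were mixed in the background of both genotypes. The labels do not say whether the deletion is limited to muscle, nor do they give sex, age or exercise state. The series as a whole concerns the kinase and the use of fatty acids by exercising muscle.

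A muscle fibre is excited when sodium channels carry an action potential over its surface and into the transverse tubules. There the voltage-sensing calcium channel of the tubule membrane, whose pore subunit is Cacna1s, triggers calcium release from the sarcoplasmic reticulum. The chloride channel encoded by Clcn1 and a set of potassium channels repolarise the membrane and hold it at rest. Muscle that has lost its nerve is known to re-express channels of immature fibres, among them the small-conductance calcium-activated potassium channel Kcnn3, and Kcnh2 has been described in wasting mouse muscle.

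All values are log2 expression values of probe sets, and each gene is represented by its probe set with the highest mean over the 7 arrays. Array medians were 7.52, 7.52 and 7.58 in KO and between 7.50 and 7.54 in WT. A gene was counted as above the array median where its WT mean exceeded 7.53, the mean of the WT array medians. 54 channel genes passed this level and 79 did not. Kcnt1, a sodium-activated potassium channel, lay just inside it with a WT mean of 7.53, and Kcnj13, an inward rectifier of epithelia, just outside it with 7.49. Muscle tissue holds several cell types, and fewer cells of a type cannot be told apart here from less RNA per cell. The probe sets of the deleted genes averaged 0.51 ± 0.09 lower for Prkaa1 and 0.21 ± 0.07 lower for Prkaa2 in KO (difference ± SE), and they may lie outside the deleted exons, so they do not check the genotype. All 8 fast fibre markers, among them Myh4 and Actn3, lay above the array median.

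No channel gene differed between the genotypes after adjustment over all probe sets with limma. The smallest adjusted p was 0.208, for Kcnn2. Over all genes 5 passed an adjusted p of 0.05, which is 0.0251% of those tested, and among genes above the array median it was 0.0367%. At an unadjusted p under 0.05, 4 channel genes were higher in KO (3.01%, against 3.93% of all genes) and 7 were lower (5.26%, against 6.69%). The KO and WT values did not overlap for 4 channel genes that were higher in KO (3.01%, against 3.29% of all genes) and for 9 that were lower (6.77%, against 5.33%). These shares lie near those of the whole array and are not a result about channel genes.

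The same held for the 54 channel genes above the array median. At an unadjusted p under 0.05, 3 were higher in KO (5.56%, against 5.29% of all genes above the median) and 5 were lower (9.26%, against 11.3%). Non-overlapping values were found for 3 that were higher (5.56%, against 4.55%) and 6 that were lower (11.1%, against 9.07%). Their median difference of KO minus WT was 0.01, beside -0.02 over all genes above the median. In all, 9 of the 54 differed by more than 0.2 in size (16.7%, against 13.5%). The count of 4 higher channel genes became 2 without WT replicate 3 (1.5%, against 3.20% of all genes) and 7 without KO replicate 1 (5.26%, against 4.98%).

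**Figure D1:**
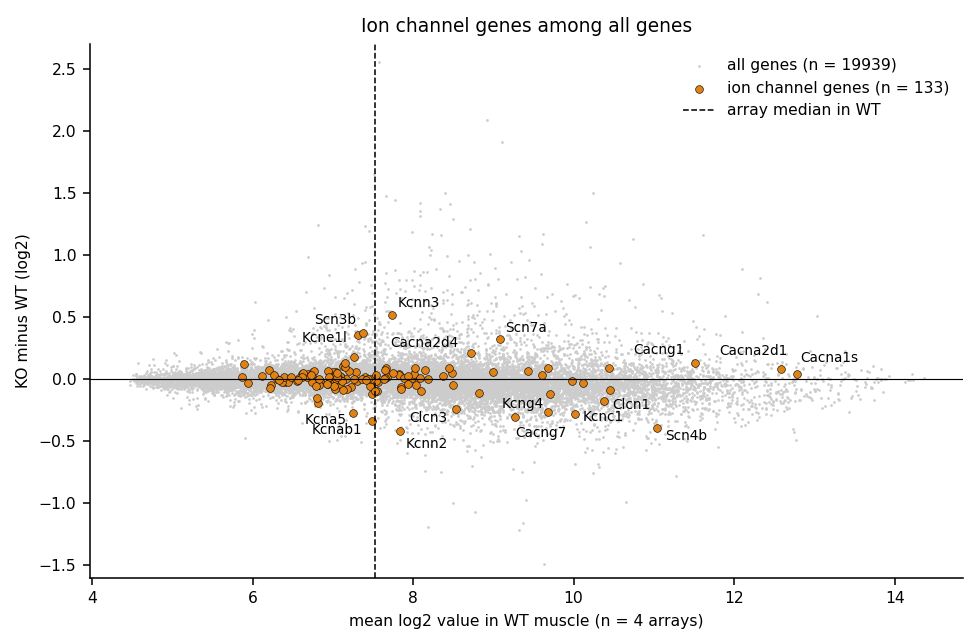
KO minus WT difference (log2) of each gene against its mean log2 value in WT muscle. Grey points are all 19939 genes, orange points the 133 channel genes, and the dashed line marks the array median in WT of 7.53; the channel genes lie between -0.42 (Kcnn2) and 0.51 (Kcnn3).

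KO array 3 stood apart from the others in many of these genes. It held the highest of the 7 values for 58 of the 133 channel genes (43.6%, against 28.6% of all genes), while KO arrays 1 and 2 held it for 6 each. Its array median of 7.58 was also the highest. WT array 3 stood apart at the other end. It held the lowest value for 44 of the 133 channel genes, against 8 to 22 in the other arrays, and had the lowest array median, 7.50. The share of lowest values over all genes was not counted, so this count is not a result about channel genes. In 83 of the 133 channel genes (62.4%, against 59.4% of all genes) at least a pair of arrays carried the same deposited value.

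Kcnn3 and Kcnh2 were the channels of denervated muscle that were measured. Kcnn3 stood at 7.88, 8.06 and 8.82 in KO muscles, against 7.72, 7.70, 7.83 and 7.70 in WT muscles. The genotypes did not overlap, and KO array 3 lay far above the other KO arrays. The difference was 0.51 ± 0.21 (SE), 1.43-fold higher in KO, with a limma adjusted p of 0.457. Without KO array 3 it was 0.23, and without KO array 1 it was 0.70. Kcnn3 had the greatest difference of any channel gene and did not pass the test.

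Kcnh2, a delayed rectifier best known from heart muscle, had log2 values of 7.48, 7.32 and 7.63 in KO muscles, against 7.49, 7.38, 7.44 and 7.59 in WT muscles. The genotypes overlapped throughout, with a difference of -0.003 ± 0.08 and a 95% interval of -0.20 to 0.19. The relatives of Kcnn3 differed in both directions. Kcnn2, a small-conductance channel of neurons and heart, stood at 7.56, 7.44 and 7.27 in KO, against 8.01, 7.77, 7.89 and 7.68 in WT. Every KO value lay below every WT value. The difference of -0.42 ± 0.09 was 1.33-fold lower in KO, with a limma adjusted p of 0.208. Kcnn1 differed by -0.05 ± 0.05, and Kcnn4, the intermediate-conductance channel of blood cells, by 0.09 ± 0.06; both were named after their values were seen, to complete the family.

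The promoter windows of 4 genes are shown because these genes stand for the main patterns: Kcnn3 and Scn4b for the differences in either direction, and Clcn1 and Cacna1s for fibre channels whose groups overlapped. Each runs 300 bases around the RefSeq gene start (GRCm38.p6, plus strand). Capitals mark letters that match a myogenic E-box (CAGCTG) or a MEF2 site, the DNA elements of muscle-specific transcription factors, or an estrogen-related receptor half-site (AAGGTCA); both strands were searched. The windows lie at chr3:89519914-89520213 for Kcnn3, chr9:45138374-45138673 for Scn4b, chr6:42286435-42286734 for Clcn1 and chr1:136052561-136052860 for Cacna1s.
Kcnn3: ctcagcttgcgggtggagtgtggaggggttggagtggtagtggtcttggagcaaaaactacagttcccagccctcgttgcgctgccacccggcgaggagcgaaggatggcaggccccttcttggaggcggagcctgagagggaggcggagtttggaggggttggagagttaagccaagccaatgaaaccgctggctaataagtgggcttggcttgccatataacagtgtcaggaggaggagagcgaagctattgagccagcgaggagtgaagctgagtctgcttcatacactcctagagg
Scn4b: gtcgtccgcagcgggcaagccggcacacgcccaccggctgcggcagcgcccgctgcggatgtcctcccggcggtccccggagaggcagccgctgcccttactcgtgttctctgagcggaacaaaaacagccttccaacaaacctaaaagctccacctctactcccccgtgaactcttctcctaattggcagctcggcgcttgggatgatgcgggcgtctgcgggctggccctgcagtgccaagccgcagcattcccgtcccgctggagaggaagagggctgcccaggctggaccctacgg
Clcn1: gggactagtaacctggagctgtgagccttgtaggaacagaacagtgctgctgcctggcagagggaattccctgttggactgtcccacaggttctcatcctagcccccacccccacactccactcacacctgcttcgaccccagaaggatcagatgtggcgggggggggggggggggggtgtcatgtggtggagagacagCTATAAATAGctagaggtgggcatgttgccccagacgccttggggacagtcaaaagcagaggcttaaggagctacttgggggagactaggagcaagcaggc
Cacna1s: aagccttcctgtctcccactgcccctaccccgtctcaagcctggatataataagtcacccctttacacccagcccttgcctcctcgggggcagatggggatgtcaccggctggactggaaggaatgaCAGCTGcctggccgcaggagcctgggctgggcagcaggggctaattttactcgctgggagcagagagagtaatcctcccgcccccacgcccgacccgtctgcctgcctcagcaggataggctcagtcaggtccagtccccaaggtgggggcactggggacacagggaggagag
The Clcn1 window holds a MEF2 match at -51 from the gene start and the Cacna1s window an E-box at -123. The windows of Kcnn3 and Scn4b hold no match. This contrast belongs to the 4 windows shown and does not carry over to the other named genes. Scn7a and Kcna5, whose groups did not overlap, hold an E-box at -150 and at 8. Cacna2d1 and Kcnma1, fibre channels whose groups overlapped, hold no match. RefSeq windows were found for 103 of the channel genes, 142 windows in all. The E-box stood in 38 of them (26.8%) and in 16.3% of all 32851 promoter windows. For the channel genes above the array median it was 13 of 50 windows (26.0%). The MEF2 site stood in 4 windows of channel genes (2.82%, against 3.19% of all) and the receptor half-site in 6 (4.23%, against 4.72%). Among the windows of measured genes these shares were 2.52% and 3.82%, below those of the channel genes, so the direction depended on the windows compared. The E-box share was 16.3% there too. A match describes letters only, and factor binding was not measured.

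**Figure D2:**
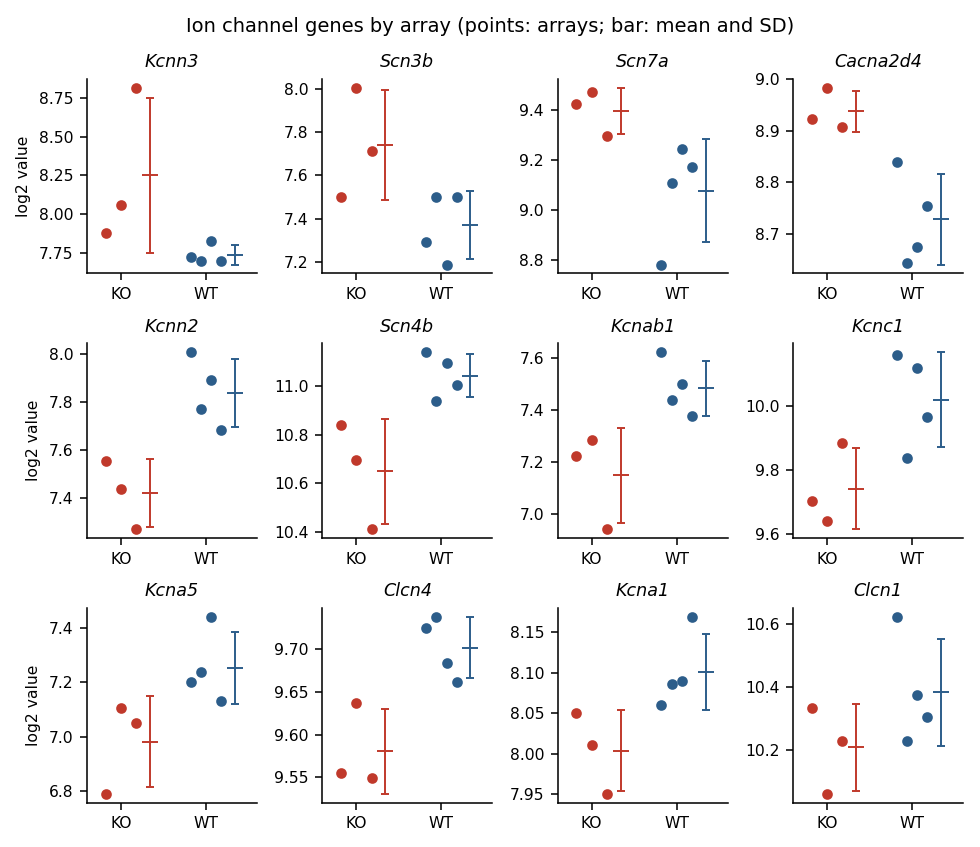
Log2 values of 12 channel genes by array, KO left of WT; points are single arrays and bars give the mean and SD (n = 3 KO, 4 WT). KO and WT do not overlap in Kcnn3, Scn7a, Cacna2d4, Kcnn2, Scn4b, Kcnab1, Kcna5, Clcn4 and Kcna1, whereas they overlap in Scn3b, Kcnc1 and Clcn1.

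The pore subunit of the adult muscle sodium channel, Scn4a, was not analysed here. Of 8 sodium channel pore genes only Scn7a lay above the array median. Scn7a, a sodium-sensing channel relative of glia and other non-neuronal cells, stood at 9.42, 9.47 and 9.30 in KO, against 8.78, 9.11, 9.25 and 9.17 in WT. All 3 KO values lay above the WT values, the lowest KO value by a narrow margin. The difference was 0.32 ± 0.11, with a limma adjusted p of 0.402, and it was 0.22 without WT array 1. Scn3a, a channel of the embryonic brain and at or below the array median, differed by 0.12 ± 0.06 and by 0.06 without KO array 3. Its groups were separated by less than the rounding of the values, and it was named after they were seen.

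The beta subunits, which modulate gating of the sodium pore, differed in both directions. Scn4b stood at 10.84, 10.70 and 10.41 in KO, against 11.14, 10.94, 11.09 and 11.00 in WT. All KO values were below all WT values. The difference of -0.40 ± 0.10 was 1.32-fold lower in KO, with a limma adjusted p of 0.261, and it was -0.28 without KO array 3. Scn3b, at or below the array median, had values of 7.50, 8.01 and 7.71 in KO, against 7.29, 7.50, 7.19 and 7.50 in WT. The lowest KO value fell among the WT values. The difference was 0.37 ± 0.13 and 0.24 without KO array 2. Scn2b, the third beta subunit measured, differed by 0.05 ± 0.05.

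The calcium channel of excitation-contraction coupling was close in the genotypes. Cacna1s stood at 12.82, 12.77 and 12.89 in KO, against 12.80, 12.80, 12.81 and 12.72 in WT. The groups overlapped. The difference was 0.05 ± 0.04, with a 95% interval of -0.05 to 0.14. Its partners Cacna2d1 (0.08 ± 0.05), Cacnb1 (0.09 ± 0.06) and Cacng1 (0.13 ± 0.09), the extracellular, intracellular and gamma subunits of the same complex, overlapped too, and their 95% intervals each included 0. A second probe set of Cacna2d1 gave 0.04. None of the 4 changed sign in any of the alternative settings, but without KO array 3 their differences were 0.01 for Cacna1s, 0.05 for Cacna2d1, 0.05 for Cacnb1 and 0.06 for Cacng1. Cacng6, the other gamma subunit of muscle, was not analysed here.

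Other calcium channel genes showed small differences. Cacna2d4, an alpha-2/delta subunit known from the retina, stood at 8.92, 8.98 and 8.91 in KO, against 8.84, 8.64, 8.67 and 8.75 in WT. Every KO value was above every WT value. The difference was 0.21 ± 0.05, with a limma adjusted p of 0.254, and it ranged from 0.18 to 0.25 when single arrays were left out. Cacna1c, the pore of the cardiac and smooth muscle channel, had values of 7.48, 7.48 and 7.41 in KO, against 7.64, 7.48, 7.61 and 7.48 in WT. The groups were separated by less than the rounding of these values, with a difference of -0.10 ± 0.05. Cacng7, an auxiliary subunit of neurons named after its values were seen, had the greatest difference among the 101 channel genes outside the naming rule, -0.31 ± 0.19, and its groups overlapped. The 10 calcium pore genes ranged from -0.10 to 0.06 and the 14 auxiliary genes from -0.31 to 0.21.

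Among the ClC genes, 6 of 7 lay above the array median and the median difference was -0.11. Clcn1, the chloride channel that sets the resting conductance of muscle fibres, stood at 10.33, 10.06 and 10.23 in KO, against 10.62, 10.23, 10.37 and 10.31 in WT. The KO values lay toward the low end but overlapped. The difference was -0.18 ± 0.11, with a 95% interval of -0.42 to 0.07. When single arrays were left out, it ran from -0.24 without KO array 1 to -0.10 without WT array 1. Without KO array 2 it was also -0.10. With the replicate number in the fit the difference was -0.20, with an unadjusted limma p of 0.016. Of the 15 alternative settings, this was the only 1 with an unadjusted p under 0.05. The remaining ClC proteins named here exchange chloride for protons in endosomes and lysosomes. Clcn4 stood at 9.55, 9.64 and 9.55 in KO, against 9.73, 9.74, 9.68 and 9.66 in WT. These values did not overlap, and the difference was -0.12 ± 0.04 with a limma adjusted p of 0.331. Clcn7, an exchanger of lysosomes and of bone-resorbing cells, did not overlap either, with -0.11 ± 0.05, and stood at -0.07 without WT array 3. Clcn3 differed by -0.24 ± 0.11 and overlapped. Clcn5, at or below the array median, differed the other way by 0.18 ± 0.08, and by 0.09 without KO array 3.

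Voltage-gated potassium channels form the largest family, with 35 genes, 15 of them above the array median. Kcnc1, a fast delayed rectifier, was the fibre channel with the greatest difference. Its values were 9.70, 9.64 and 9.88 in KO, against 10.16, 9.84, 10.12 and 9.97 in WT. The highest KO value lay above the lowest WT value. The difference was -0.28 ± 0.09, with a limma adjusted p of 0.390. Its relative Kcnc4 differed by -0.09 ± 0.18 and changed sign among the alternative settings, and Kcne3, the regulatory subunit known to pair with Kcnc4 in muscle, differed by 0.01 ± 0.03, lay at or below the array median and changed sign under quantile normalization.

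Kcna7, a channel expressed in heart and skeletal muscle, carried 9.50 in every KO array, against 9.63, 9.08, 9.53 and 9.50 in WT. The difference of 0.07 ± 0.13 turned to -0.05 without WT array 2. Kcna1, a channel of axons, had values of 8.05, 8.01 and 7.95 in KO, against 8.06, 8.09, 8.09 and 8.17 in WT. The groups were adjacent without overlap, with a difference of -0.10 ± 0.04 and a limma adjusted p of 0.458. Kcna5, a channel of vascular smooth muscle and heart, stood at 6.79, 7.10 and 7.05 in KO, against 7.20, 7.24, 7.44 and 7.13 in WT. All KO values were lower. The difference was -0.27 ± 0.10, and -0.18 without KO array 1. Kcng4, a silent subunit that modifies other potassium channels, differed by -0.27 ± 0.14 with overlap.

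Inward rectifiers, which hold the resting potential, lay close together. Kcnj2 stood at 9.90, 9.36 and 9.66 in KO, against 9.63, 9.45, 9.72 and 9.63 in WT. Its KO arrays were both the highest and the lowest, and the difference was 0.03 ± 0.13. Kcnj12 differed by 0.06 ± 0.07, and by 0.004 without WT array 3. Kcnj11, the pore of the ATP-sensitive channel that links membrane potential to energy state, stood at 10.02, 9.91 and 9.96 in KO, against 9.96, 9.96, 9.94 and 10.05 in WT. The groups overlapped, with a difference of -0.02 ± 0.04 and a 95% interval of -0.12 to 0.08, and its sign turned under quantile normalization. All 14 inward rectifiers lay between -0.19 and 0.06. Kcnj13 had the only non-overlapping values among them, with -0.12 ± 0.06, and -0.05 without KO array 3. The 14 two-pore-domain channels, which carry background potassium current, all lay between -0.08 and 0.07, and 5 of them lay above the array median. They held no call at an unadjusted p under 0.05 (against 3.93% higher and 6.69% lower over all genes). None had non-overlapping values (against 3.29% higher and 5.33% lower). With 14 genes these counts lie near the background and are not a result about this family.

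Kcnma1, the large-conductance calcium-activated channel, stood at 10.15, 10.27 and 9.85 in KO, against 9.89, 10.34, 10.11 and 10.14 in WT. The groups overlapped, with a difference of -0.03 ± 0.13. A second, dimmer probe set gave 0.07, and the sign depended on which was used. Kcnt1 differed by -0.09 ± 0.06 with overlap, by -0.04 without KO array 2 and by -0.14 without KO array 3. Of the 16 auxiliary potassium channel genes only 2 lay above the array median. Kcnab1, a cytoplasmic beta subunit that speeds inactivation, stood at 7.22, 7.28 and 6.94 in KO, against 7.62, 7.44, 7.50 and 7.38 in WT. All KO values were below all WT values. The difference was -0.33 ± 0.09, 1.26-fold lower in KO, with a limma adjusted p of 0.302, and -0.23 without KO array 3. Kcne1l, a small regulatory subunit, had values of 7.38, 7.55 and 8.09 in KO, against 7.35, 7.37, 7.15 and 7.38 in WT. KO array 3 stood far above the rest. The difference was 0.36 ± 0.16, and 0.15 without KO array 3.

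**Figure D3:**
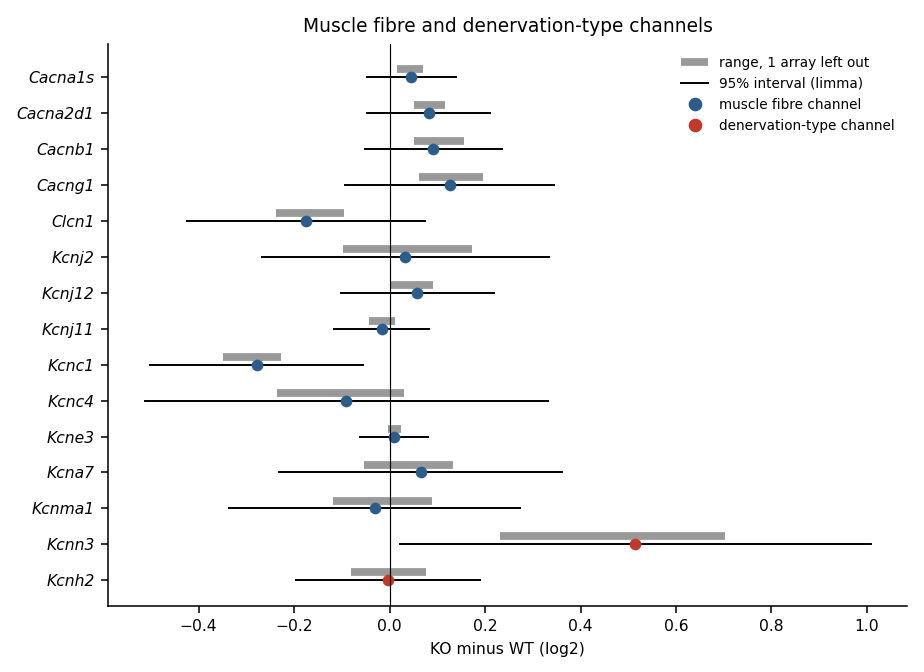
KO minus WT difference (log2) of the 13 measured muscle fibre channels (blue) and of Kcnn3 and Kcnh2 (red), with 95% limma intervals as lines and the range of the difference when 1 array was left out as grey bars. The intervals of Kcnc1 and Kcnn3 do not include 0 before adjustment; the others do.

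In all, 13 of the 17 listed muscle fibre channels were measured, 12 of them above the array median. None was higher (against 3.93% of all genes) and 1, Kcnc1, was lower (7.69%, against 6.69%) at an unadjusted p under 0.05. None had non-overlapping values (against 3.29% higher and 5.33% lower over all genes), so these counts too lie near the background, and the median difference was 0.03. The 101 channel genes outside the naming rule differed by -0.31 to 0.13. The rule took the channel genes with the smallest unadjusted p, so these 101 hold none under 0.05 by its choice.

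Other genes of membrane excitation and calcium handling were read from the same fit. Of 32 listed partners 29 were measured, 27 of them above the array median. At an unadjusted p under 0.05, 8 were higher (27.6%, against 3.93% of all genes) and 3 lower in KO (10.3%, against 6.69%). Among all genes above the array median these shares were 5.29% and 11.3%. The list was chosen with earlier results of these data known, so its counts are not independent evidence. The median difference of the partners was 0.04, beside -0.005 over all genes. Atp2a2, the calcium pump of slow fibres, stood at 10.35, 10.67 and 11.02 in KO, against 9.87, 9.91, 10.06 and 9.82 in WT, a difference of 0.76 ± 0.15. Atp2a2 is also counted in the slow fibre list below. Sln, a small peptide that inhibits the pump, differed by 0.44 ± 0.10. The sodium pump subunits differed in opposite directions: Atp1b1, the beta subunit of slow fibres, differed by -0.38 ± 0.09 and Atp1b2, that of fast fibres, by 0.35 ± 0.09. None of the 4 overlapped, and none passed an adjusted p of 0.05 (limma, lowest 0.142 for Atp2a2).

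Genes known to respond to denervation were read beside the channels. All 13 genes of a list chosen with earlier results of these data known were measured, so their count is not independent evidence. Of these, 6 were higher (46.2%, against 3.93% of all genes) and 1 was lower (7.69%, against 6.69%) at an unadjusted p under 0.05, and the median difference was 0.35. Myh3, the embryonic myosin heavy chain, rose in KO muscles, to 8.45, 8.25 and 8.32, against 7.67, 7.64, 7.69 and 7.71 in WT muscles. The difference was 0.66 ± 0.05, with a limma adjusted p of 0.022, and it was the only call of the list. The direction held in all settings, but an adjusted p under 0.05 did not when any single array other than KO array 1 was left out. Ncam1, an adhesion molecule that spreads over denervated fibres, had 9.71, 9.88 and 10.30 in KO, against 9.02, 8.79, 9.09 and 8.92 in WT (adjusted p 0.095). Runx1, a transcription factor of denervated fibres, differed by 1.37 ± 0.29 and Myh8, the perinatal myosin heavy chain, by 0.35 ± 0.06, both without overlap. The acetylcholine receptor subunits of the list differed by 0.48 ± 0.16 for Chrnb1, 0.24 ± 0.06 for Chrna1, 0.05 ± 0.04 for Chrnd and 0.09 ± 0.06 for Chrng, the subunit of immature receptors. Of the 4 only Chrna1 did not overlap. Dach2, a repressor in innervated muscle, differed by -0.50 ± 0.11.

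**Figure D4:**
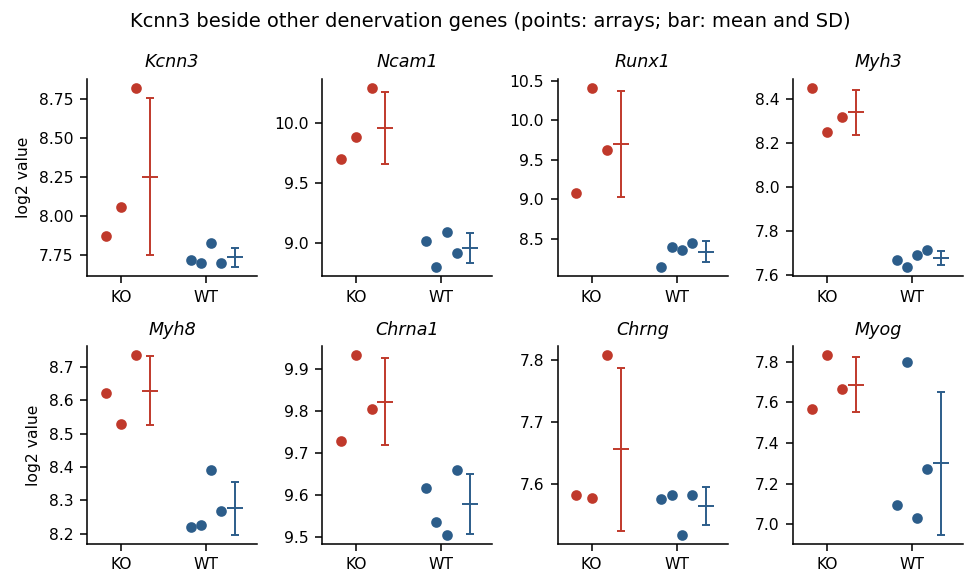
Log2 values of Kcnn3 beside 7 denervation genes by array, KO left of WT; points are arrays and bars the mean and SD (n = 3 KO, 4 WT). KO and WT do not overlap in Kcnn3, Ncam1, Runx1, Myh3, Myh8 and Chrna1; in Kcnn3 the KO array at 8.82 lies far from the other KO arrays.

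Several cell-type marker lists differed by genotype beside these channel values. The marker lists too were chosen with earlier results of these data known, so their counts are not independent evidence. The mean of 10 myeloid markers was 8.77, 8.93 and 8.85 in KO, against 8.26, 8.07, 8.32 and 8.18 in WT, with 9 genes higher at an unadjusted p under 0.05 (90.0%, against 3.93% of all genes). The mean of 10 endothelial markers was 9.35, 9.25 and 9.23 in KO, against 9.61, 9.63, 9.71 and 9.53 in WT. Of these markers 7 were lower (70.0%, against 6.69% of all genes and 11.3% of all genes above the array median). The 9 smooth muscle and pericyte markers ranged from 9.07 to 9.14 in KO, against 9.20 to 9.36 in WT, with 5 lower (55.6%, against the same shares). These lists did not overlap between genotypes, and channels known from smooth muscle stood beside them at -0.27 ± 0.10 for Kcna5, -0.10 ± 0.05 for Cacna1c and -0.003 ± 0.04 for Kcnmb1, the last named after its value was seen. The mean of 8 slow fibre markers was 8.85, 8.48 and 9.11 in KO, against 8.31, 8.45, 8.47 and 8.30 in WT, with 5 higher (62.5%). Like Kcnn3, the slow fibre, fibroblast and Schwann lists were highest in KO array 3. The list of membrane excitation and calcium handling partners was also highest there. The denervation list was not: its mean was highest in KO array 2 (8.91), against 8.79 in KO array 3 and 8.64 in KO array 1. KO array 3 held the highest value for 28.6% of all genes. The part of cell makeup and fibre type in the channel values was not tested.

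Markers of nerve overlapped between the genotypes. The 5 measured Schwann cell markers ranged from 8.22 to 8.36 in KO, against 8.28 to 8.30 in WT, beside the higher Scn7a, and none passed an unadjusted p of 0.05. Of 8 neuronal markers 1 lay above the array median, and their mean ranged from 6.92 to 6.97 in KO, against 6.90 to 7.03 in WT. The immediate early genes were at 10.54 in KO array 2, against 8.43 to 8.86 in the other 6 arrays. That array held the highest value for 6 of the 133 channel genes, as many as KO array 1. They were Scn3b, Scn7a, Cacna2d4, Cacnb4, Kcnk3 and Kcnk6. The part of this response in the channel values was not tested.

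**Figure D5:**
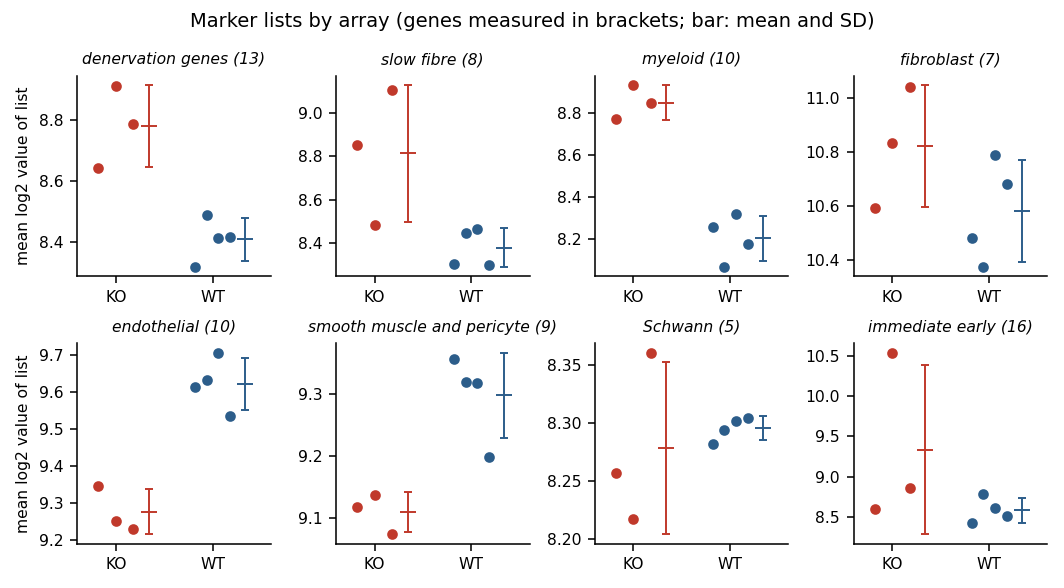
Mean log2 value of 8 marker lists by array, KO left of WT; points are arrays, bars the mean and SD over arrays, and brackets give the genes measured. Denervation, slow fibre and myeloid lists are higher and endothelial and smooth muscle lists lower in all 3 KO arrays, while the Schwann and fibroblast lists overlap.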

How the data were processed

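Total RNA of extensor digitorum longus muscles was extracted with TRIzol and biotin-labelled with the Ambion WT Expression Kit, as the labels' protocols state. The authors deposited 1 table of log2 values for 28856 probe sets on 7 arrays (3 KO, 4 WT). The base of the logarithm was inferred, since values of 4.41 to 14.65 exceed the 11.09 that a natural log of a 16-bit scanner reaches. How the authors normalized and summarized the probes, and on which genome build, is not stated in the labels used here, nor is any batch.

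The 21789 probe sets with 1 gene symbol were fitted with limma 3.58.1 in R 4.3.3 (lmFit and eBayes, KO minus WT), with Benjamini-Hochberg adjustment over all of them, after a check on simulated data. The number of arrays limits the precision. The members and lists were chosen with earlier results of these data known. Named were the measured fibre and denervation-type channels, the 10 other channel genes above and the 5 at or below the array median in WT with the smallest unadjusted p, the genes beside that level, and 4 genes per pathway list. Another 13 RefSeq genes of these families were not analysed here. Alternatives were leaving out each array, the replicate block, array weights, quantile normalization, median centring, dropping dim probe sets, a robust prior with a trend, the mean of a gene's probe sets, fitting every probe set of the table, and other thresholds.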

Additional observations from a re-analysis of the deposited data

Results flagged for a closer look

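In each of 53 WT groups of 4 arrays the array farthest from the others was compared with the whole range, a rule that by chance marks about 1 in 20 groups, and 3 groups were marked. Cacna1s stood at 12.7201 in WT array 4, against 12.80 to 12.81 in the other WT arrays. Clcn7 stood at 8.94914 in WT array 3, against 8.77 to 8.79 in the others, and its non-overlapping difference of -0.11 was -0.07 without that array. Kcne1l stood at 7.15145 in WT array 3, against 7.35 to 7.38 in the others. The KO group of 3 arrays was too small for this comparison.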

How the results depend on the processing

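No channel gene had an adjusted p under 0.05 in any alternative, nor under 0.10 in limma's fit of all arrays. The count of channel genes higher in KO at an unadjusted p under 0.05, 4 in the reported fit, was 7 under quantile normalization and ran from 2 (without WT replicate 3) to 7 (without KO replicate 1) when single arrays were left out; the count of lower genes, 7, ran from 5 to 9. The median difference of channel genes above the array median, 0.00731, ran from -0.00308 to 0.0268 over the same fits. Under median centring it was -0.00946, beside -0.036 over all genes above the array median. With the replicate number in the fit (replicate block, arrays 1 to 3 of each genotype, without WT array 4) 5 channel genes were higher and 8 lower, and all genes gave 0 adjusted calls against 5. Deviations of same-numbered KO and WT arrays correlated at 0.30, 0.15 and -0.20, and those of differently numbered arrays at -0.27 to 0.20. With 3 KO and 4 WT arrays these values cannot decide whether the numbers pair the arrays.

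7 of the named channel genes, all with differences near 0, changed sign, and the cause was not tested. Under the replicate block the values were 0.00899 for Kcnj11, 0.00113 for Kcnc4, -0.00335 for Kcne3 and 0.0352 for Kcnh2. These equal the differences without WT array 4 alone, so the block added no sign change of its own for these genes. Under array weights they were -0.0549 for Kcnj2 and 0.0933 for Kcnma1, and Kcnma1 gave 0.0202 as the mean of its probe sets. Quantile normalization gave 0.00243 for Kcnj11 and -0.0102 for Kcne3, and median centring -0.00755 for Kcne3. Leaving out single arrays gave -0.0976 to 0.173 for Kcnj2, -0.0434 to 0.0106 for Kcnj11, -0.0541 to 0.132 for Kcna7, -0.236 to 0.0295 for Kcnc4, -0.00335 to 0.0234 for Kcne3, -0.119 to 0.088 for Kcnma1 and -0.0801 to 0.0757 for Kcnh2. The other genes chosen by the naming rule kept their direction in every setting run. Myh3 lost its adjusted call under the replicate block and without each array except KO replicate 1. With 3 against 4 arrays and no detection values, dim channels have no known background.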

Other observations

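Scn2a, a sodium channel pore of the brain that lay at or below the array median, was represented by 14 probe sets. All 14 gave a positive KO minus WT difference, between 0.01 and 0.23 (log2), and probe sets of 1 gene on the same arrays are not independent.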
